A study of Danio rerio with 24 samples.

Results

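The genes followed here encode liver proteins that bind heme, copper and iron: hpxb (hemopexin b), cp (ceruloplasmin), fth1a (ferritin heavy chain 1a), tfa (transferrin-a) and mt2 (metallothionein 2). They were found by gene symbol in the annotation of the array, and were chosen with earlier results of these data known. Each has 1 probe, so 5 of the 16512 spots are described. The probe of mt2 carries the older symbol mt, which the RefSeq gene table lists as a synonym of mt2 alone. Livers came from adult zebrafish (6 months to 1 year old per the study's methods) kept in water with HgCl2 at 200 µg/L or in water without it, and were taken after 8, 24, 48 and 96 h. Each of the 8 groups had 3 arrays. The Cy5 channel of an array held RNA from 4 livers combined into 1 pool, and the Cy3 channel held a common reference of male and female wild-type fish, with no dye swap. Strain and sex are not given for the pools in the sources used here. Values are log2 ratios of liver over reference after normalization, and differences are HgCl2 minus the control of the same time.

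Hemopexin is a plasma protein made by hepatocytes that binds free heme tightly and delivers it to the liver, where the heme is broken down and its iron is stored. Ceruloplasmin carries most copper of plasma and oxidises iron, so that transferrin can take it up, and ferritin holds iron inside the cell in a form that does not react. Metallothionein, a small protein rich in cysteine, binds zinc and copper and also mercury, and is widely used as a marker of metal exposure. In mammals, hemopexin and ceruloplasmin are acute phase proteins, whose synthesis in the liver goes up during inflammation.

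The median Cy5 signal of an array was 314 to 782 in the exposed livers and 251 to 893 in the control livers, and 65.7% to 94.9% of probes lay above background in Cy5. Arrays of the same group correlated at r of 0.292 to 0.713. The Cy3 levels of the reference, after normalization, divided the arrays into 4 sets. A pair of sets held 4 and 8 exposed arrays, and the other pair held 8 and 4 control arrays. Exposed and control arrays never shared a set, and the effect of HgCl2 and that of the set cannot be told apart. All 3 HgCl2 arrays at 8 h and HgCl2 24 h replicate 1 fell in 1 set and the other exposed arrays in another. Control arrays at 8 and 24 h and control 48 h replicates 1 and 2 shared a set. Control 48 h replicate 3 and the control arrays at 96 h made up the other. Comparisons of 96 h with 8 h thus also cross sets in both treatments. In a bulk liver sample, a change in the share of cells that make an mRNA and a change of its amount per cell cannot be told apart.

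The mRNA of hpxb was higher in exposed livers at every time, by 3.10 to 4.52 on the log2 scale, or 8.55-fold to 22.9-fold. In control livers it lay below the reference on all 12 arrays, and in exposed livers above the reference on 11 of 12. After 8 h, hpxb had log2 ratios of 3.43, 1.60 and -0.24 in HgCl2 livers, against -0.78, -1.36 and -2.37 in control livers. The groups did not overlap, which held for 9.44% of all probes in that direction at 8 h. The 3 exposed pools spread over a wide range and the lowest came near the highest control. After 24 h the ratios were 0.35, 2.11 and 2.56 in HgCl2 livers, and -1.91, -2.67 and -2.29 in control livers. Again every exposed pool was above every control pool, as for 14.7% of all probes at 24 h, with replicate 1 the lowest of the exposed. After 48 h they were 3.45, 1.37 and 0.77 in HgCl2 livers, against -2.08, -2.71 and -1.94 in control livers. After 96 h the ratios were 2.40, 2.81 and 2.33 in HgCl2 livers, and -1.87, -1.99 and -2.14 in control livers. These exposed values lay closest together. The 2.40 came from a saturated spot and is a lower limit, however, so the pools may have differed more.

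**Figure D1:**
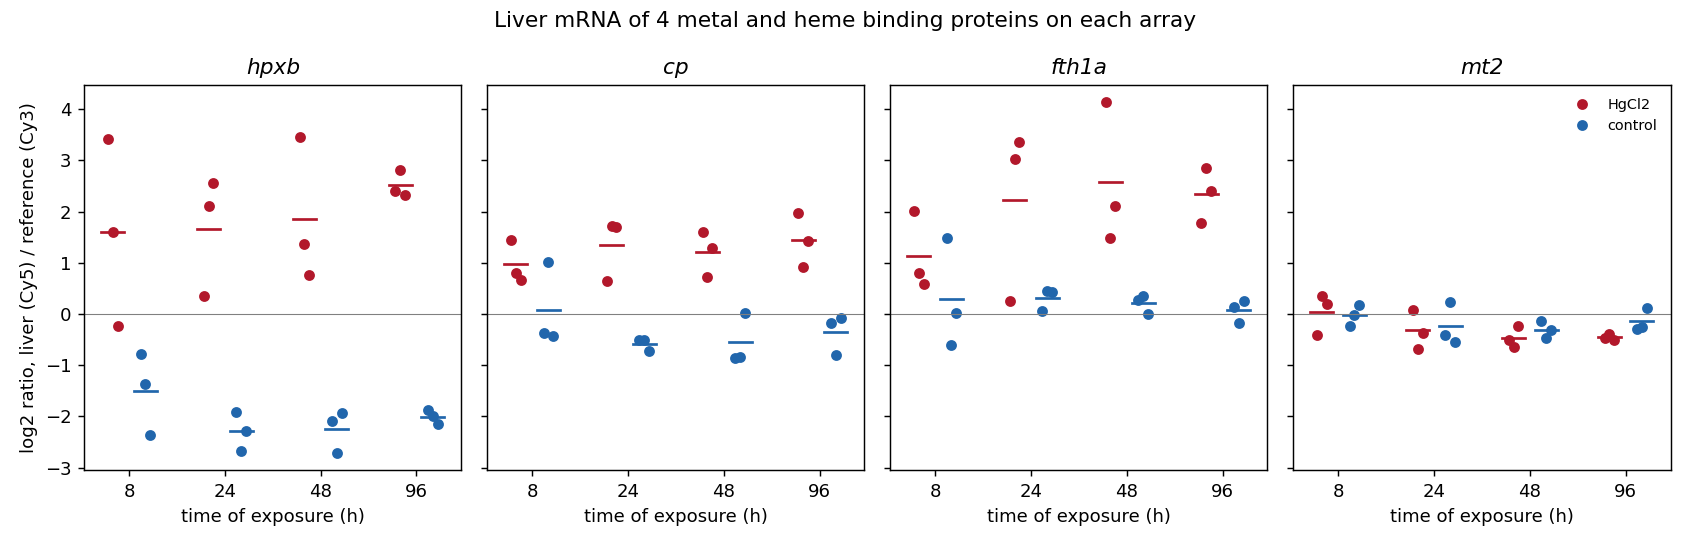
Log2 ratio of liver over reference for hpxb, cp, fth1a and mt2 on each of the 24 arrays, by time of exposure (red, HgCl2; blue, control; points, arrays; short lines, means of 3). The exposed pools lie above the control pools at every time for hpxb, at 24, 48 and 96 h for cp and at 48 and 96 h for fth1a, while those of mt2 lie within 1 log2 unit of the reference in both treatments. Such a separation was found for 9.44% of all probes at 8 h, 14.7% at 24 h, 15.9% at 48 h and 19.4% at 96 h.

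The difference for hpxb was 3.10 ± 0.71 at 8 h (SE of the fit; limma, Benjamini-Hochberg adjusted p = 0.0403), the only one of the 4 genes tested with an adjusted p under 0.05 at that time, when 0.624% of all probes were called higher and 0.349% lower. The difference was 3.96 ± 0.71 at 24 h (adjusted p = 0.00136), 4.10 ± 0.71 at 48 h (adjusted p = 0.00125) and 4.52 ± 0.71 at 96 h (adjusted p = 0.000334) in limma. Among the 16340 probes tested, ordered from the largest rise, hpxb stood at place 7 at 8 h, place 15 at 24 h and place 6 at both 48 and 96 h. The differences and folds of hpxb at 24 and 96 h and in the average are lower limits. Its Cy5 spot was saturated on 2 exposed arrays at 24 h and 1 at 96 h. Its places at these times are not exact in either direction, since other probes were saturated too. Saturated Cy5 spots numbered 35 and 26 on HgCl2 24 h replicates 2 and 3 and 20 on HgCl2 96 h replicate 1. Averaged over the 4 times the difference was 3.92 ± 0.36, or 15.1-fold with a 95% interval of 9.04 to 25.3. The lowest of the 12 exposed arrays was above the highest of the 12 control arrays, which held for 1.06% of probes in that direction. Without 1 of 4 arrays the call at 8 h was lost in limma: the adjusted p was 0.231 without HgCl2 replicate 1 (difference 2.18), 0.105 without HgCl2 replicate 2, 0.0960 without control replicate 2 and 0.145 without control replicate 3.

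The Cy5 spot of hpxb ran into the ceiling of the scanner. Its median Cy5 intensity was between 4714 and 65535 on the exposed arrays (median 38689) and between 1184 and 10864 on the control arrays (median 2505). On 3 exposed arrays, namely 24 h replicates 2 and 3 and 96 h replicate 1, it stood at the maximum of 65535, so that these values are lower limits. With saturated spots set to missing, a setting chosen after the data were seen, 1 exposed array remained at 24 h, and the difference there was 2.64 with an adjusted p of 0.101 in limma. The reference channel of hpxb, after normalization between arrays, was lower on exposed than on control arrays by 1.19 at 8 h, by 0.59 at 24 h and by 0.33 at 48 h, but higher by 0.71 at 96 h (log2 units). In Cy5, the exposed arrays were higher by 1.90, 3.37, 3.78 and 5.22 at 8, 24, 48 and 96 h. The normalized liver level was thus higher at every time, and at 8 h the difference of the ratio also held that of the reference level. Both levels were computed from the normalized ratio and mean intensity of the spot, so neither is a reading of 1 channel by itself.

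**Figure D2:**
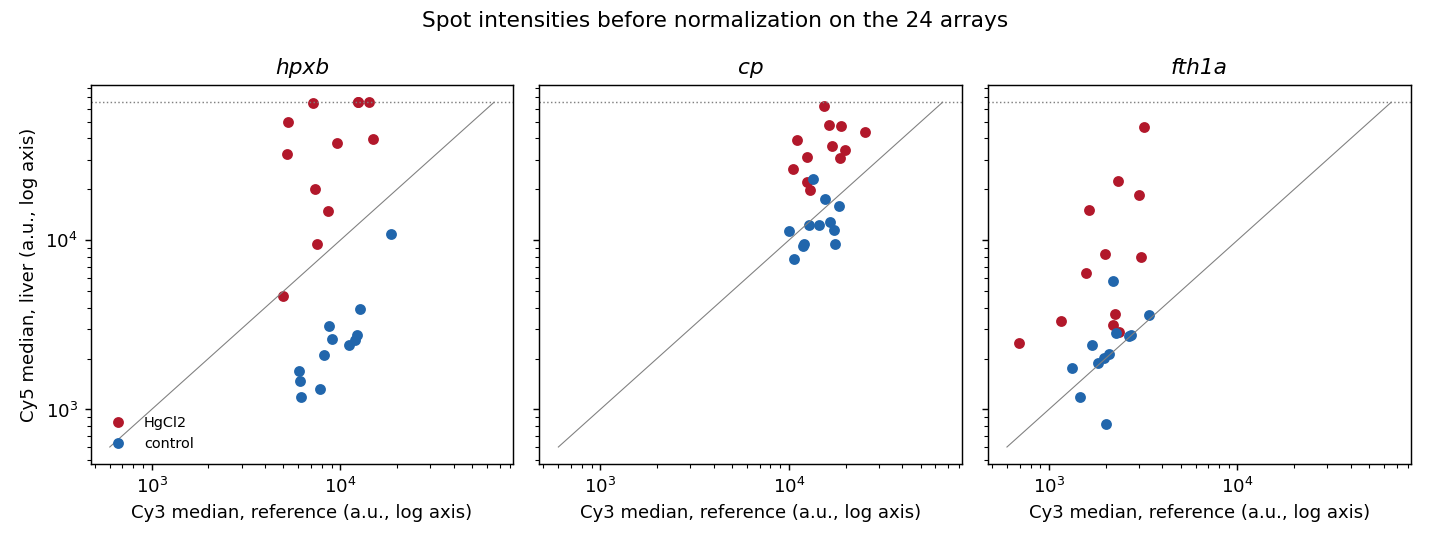
Median spot intensity of the liver RNA (Cy5) against the reference (Cy3), in arbitrary units on log axes and before normalization, for hpxb, cp and fth1a on the 24 arrays (red, HgCl2; blue, control; grey line, equal intensity; dotted line, scanner maximum of 65535). The 3 saturated hpxb spots lie on the dotted line, and over all times together the Cy3 intensities of the 2 treatments overlap. At 8 h those of hpxb did not overlap, with 4998 to 7367 on exposed and 11185 to 18578 on control arrays.

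Ceruloplasmin mRNA was called higher at 24, 48 and 96 h, by 1.76 to 1.93 on the log2 scale. At 8 h cp had log2 ratios of 1.45, 0.80 and 0.67 in HgCl2 livers, against -0.36, 1.01 and -0.42 in control livers. Control replicate 2 lay above 2 of the 3 exposed pools, so the groups overlapped. At 24 h cp had 0.64, 1.72 and 1.69 in HgCl2 livers, against -0.51, -0.50 and -0.72 in control livers. At 48 h it had 1.60, 0.72 and 1.29 in HgCl2 livers, against -0.85, -0.83 and 0.02 in control livers. At 96 h it had 1.98, 0.92 and 1.43 in HgCl2 livers, against -0.17, -0.80 and -0.07 in control livers. From 24 h on, all exposed pools were above all control pools.

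The difference for cp was 0.90 ± 0.38 at 8 h, which did not pass (95% interval 0.10 to 1.69, limma adjusted p = 0.311). It was 1.93 ± 0.38 at 24 h (adjusted p = 0.00272), 1.76 ± 0.38 at 48 h (adjusted p = 0.00698) and 1.79 ± 0.38 at 96 h (adjusted p = 0.00390) in limma, or 3.82-fold, 3.38-fold and 3.46-fold. At 24 h, cp and hpxb were the 2 genes called, when 6.61% of probes were called higher and 4.23% lower. Non-overlapping groups with HgCl2 above control were found for 9.44% of probes at 8 h, 14.7% at 24 h, 15.9% at 48 h and 19.4% at 96 h. The Cy5 spot of cp was never saturated, with 19739 to 62230 on exposed arrays (median 35160) and 7706 to 22987 on control arrays (median 11926). Over the 4 times the average difference of cp was 1.59 ± 0.19 (3.02-fold, 95% interval 2.29 to 3.98), and its call at 24, 48 and 96 h remained without any single array.

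The ferritin gene fth1a was called higher at 48 and 96 h, with a wide spread between exposed pools. At 8 h its log2 ratios were 2.01, 0.81 and 0.58 in HgCl2 livers, against 1.48, -0.61 and 0.02 in control livers. At 24 h they were 0.26, 3.03 and 3.37 in HgCl2 livers, and 0.06, 0.45 and 0.44 in control livers. HgCl2 24 h replicate 1, which was also the lowest pool of its group for hpxb and cp, lay among the control pools, and the other two pools far above them. At 48 h the ratios were 4.13, 1.48 and 2.1 in HgCl2 livers, and 0.27, 0.36 and 0.01 in control livers. At 96 h they were 1.78, 2.85 and 2.40 in HgCl2 livers, and 0.14, -0.17 and 0.25 in control livers. At these later times all exposed pools were above all control pools, which held for 15.9% of all probes at 48 h and 19.4% at 96 h.

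The difference for fth1a was 0.83 ± 0.68 at 8 h (limma adjusted p = 0.666, 95% interval -0.58 to 2.25) and 1.90 ± 0.68 at 24 h (adjusted p = 0.0777), neither of which passed. It was 2.36 ± 0.68 at 48 h (adjusted p = 0.0349) and 2.27 ± 0.68 at 96 h (adjusted p = 0.0313) in limma, or 5.13-fold and 4.82-fold. At these times hpxb, cp and fth1a were all called, when 5.29% of probes at 48 h and 7.48% at 96 h were called higher (3.37% and 5.42% lower). The average over the 4 times was 1.84 ± 0.34, or 3.58-fold with a 95% interval of 2.2 to 5.84, with a limma adjusted p of 0.00032. In that average hpxb, cp and fth1a were called, beside 17.7% of all probes called higher and 13.8% lower. The normalized liver level of fth1a differed between exposed and control arrays by -0.08, 1.60, 2.39 and 2.07 at 8, 24, 48 and 96 h. The normalized reference level differed by -0.92, -0.30, 0.03 and -0.20 (log2 units after normalization between arrays). At 8 h the difference between the group means of the fth1a ratio thus lay in the normalized reference level, but this leaned on HgCl2 replicate 1. Its reference level was 8.91, against 10.95 and 11.68 on the other exposed arrays at 8 h. The control arrays had 11.17, 11.12 and 12.00. Its Cy5 intensity was 2474 to 46696 on exposed arrays (median 7197) and 826 to 5756 on control arrays (median 2270), with no saturated spot. Zebrafish have further ferritin heavy chain genes, and whether this probe also binds their mRNA was not tested.

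The calls of fth1a at single times depended on single pools. Without HgCl2 24 h replicate 1 the difference at 24 h was 2.88 with a limma adjusted p of 0.00325. The call at 48 h was lost in limma without HgCl2 replicate 1 (difference 1.58, adjusted p = 0.214) and without control replicate 1 (adjusted p = 0.0842), 2 (adjusted p = 0.0860) or 3 (adjusted p = 0.0771). The call at 96 h was lost without HgCl2 replicate 2 (adjusted p = 0.0898), HgCl2 replicate 3 (adjusted p = 0.0834) and control replicate 1 (adjusted p = 0.0711), 2 (adjusted p = 0.104) or 3 (adjusted p = 0.0656) in limma. In the average over the 4 times the call of fth1a held without any single array, with differences between 1.65 and 2.09.

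**Figure D3:**
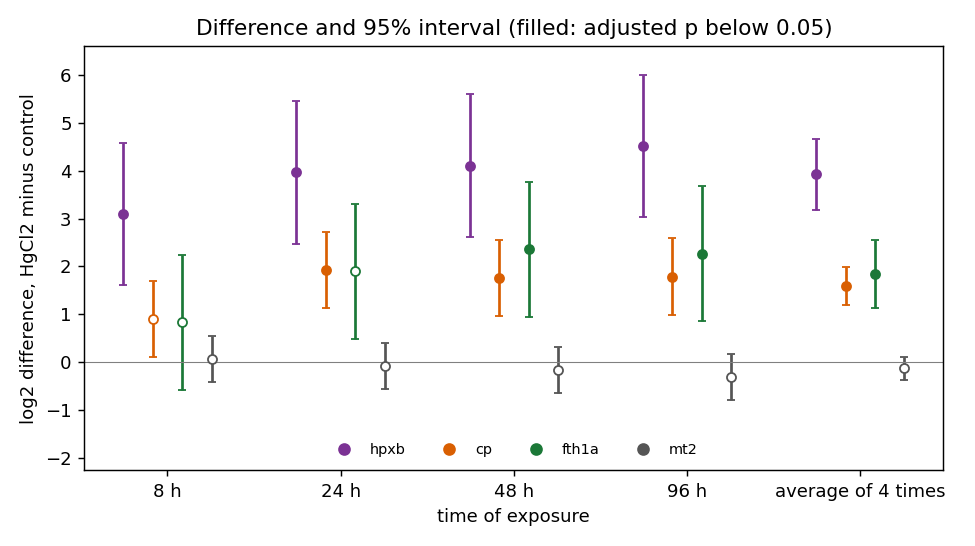
Log2 difference HgCl2 minus control with its 95% interval for hpxb, cp, fth1a and mt2 at each time and for the average of the 4 times (filled points, limma adjusted p under 0.05). hpxb is called at all 4 times, cp from 24 h and fth1a at 48 and 96 h, and the intervals of mt2 include 0 throughout.

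Metallothionein did not pass at any time. At 8 h mt2 had log2 ratios of -0.41, 0.34 and 0.20 in HgCl2 livers, against -0.23, -0.01 and 0.18 in control livers. At 96 h it had -0.46, -0.39 and -0.50 in HgCl2 livers, against -0.30, -0.24 and 0.11 in control livers, so that the exposed pools lay just below the control pools. Such a non-overlap with HgCl2 below control was found for 17.1% of probes at 96 h, and the difference of -0.31 ± 0.23 did not pass (limma adjusted p = 0.400). At the other times the groups overlapped, with differences of 0.06, -0.08 and -0.16 (SE 0.23) at 8, 24 and 48 h. The average difference of mt2 was -0.12 ± 0.11, and its 95% interval of -0.36 to 0.12 corresponds to 0.780-fold to 1.09-fold, whereas the lower limits of the same interval were 9.04-fold for hpxb, 2.29-fold for cp and 2.2-fold for fth1a.

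The spot of mt2 was dim, however. Its Cy5 intensity was 138 to 765 on exposed arrays and 110 to 944 on control arrays, over local backgrounds of 59 to 185 and 71 to 117. It was above background by more than 2 SD of the background on 8 of 12 exposed and on 10 of 12 control arrays, and at 8 h on none of the exposed arrays. The Cy3 intensity of mt2 passed the same limit on 7 of 12 exposed and 8 of 12 control arrays. Since an offset of 50 was added to each channel before the log, ratios of a dim spot are compressed toward 0, and with plain background subtraction the average difference of mt2 was -0.54 (limma adjusted p = 0.269). The plasma iron carrier transferrin gave the opposite limit: tfa was saturated in both channels on 10 of 12 exposed and on all 12 control arrays. No difference is therefore given for tfa.

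Ordered by the mean of each group, the 4 HgCl2 groups came before the 4 control groups for hpxb, cp and fth1a alike. For hpxb the means ran from 2.51 ± 0.26 at 96 h to 1.59 ± 1.83 at 8 h in HgCl2 livers (SD, n = 3), and from -1.50 ± 0.80 at 8 h to -2.29 ± 0.38 at 24 h in control livers. The hpxb means of HgCl2 livers at 24 and 96 h include saturated spots, so they are lower limits and their SD are not exact. For cp they ran from 1.44 ± 0.53 at 96 h to 0.97 ± 0.42 at 8 h in HgCl2 livers, and from 0.08 ± 0.81 at 8 h to -0.58 ± 0.13 at 24 h in control livers (SD, n = 3). For fth1a they ran from 2.57 ± 1.39 at 48 h to 1.13 ± 0.77 at 8 h in HgCl2 livers, and from 0.32 ± 0.22 at 24 h to 0.07 ± 0.22 at 96 h in control livers (SD, n = 3). Neighbours in these orders overlapped, except HgCl2 8 h and control 8 h for hpxb and HgCl2 8 h and control 24 h for fth1a. The order of the times was not separable beyond the spread between pools: of 16 changes of the effect between times for hpxb, cp, fth1a and mt2, limma called 0, and 0 had an unadjusted p under 0.05. For hpxb the effect at 96 h minus that at 8 h was 1.42, with a 95% interval of -0.68 to 3.52. Over all probes, 0% were called for the change from 8 to 24 h, 0.0918% from 8 to 48 h, 0.991% from 8 to 96 h and 0.104% from 24 to 96 h. Among the control groups, 0 of 12 changes of the 4 genes from 8 h to a later time were called by limma, and 0 had an unadjusted p under 0.05, beside 0.00612%, 0% and 0.214% of all probes called at 24, 48 and 96 h.

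At 8, 24 and 48 h, single exposed pools stood apart for hpxb, cp and fth1a together. HgCl2 8 h replicate 1 and HgCl2 48 h replicate 1 were the highest of their groups for hpxb, cp and fth1a, and HgCl2 24 h replicate 1 was the lowest of its group for all 3. At 96 h this was not so for cp and fth1a. HgCl2 replicate 2 was the highest for fth1a but the lowest for cp, and replicate 1 was the highest for cp and the lowest for fth1a. For hpxb the spot of replicate 1 was saturated at that time, so its order against replicate 2 is not known. HgCl2 24 h replicate 1 lay in another reference set than replicates 2 and 3 of its group, so pool and set cannot be told apart there. The r below include this array, and those with hpxb also include 3 exposed arrays whose hpxb spot was saturated. With each array given as its deviation from the group mean, hpxb and fth1a correlated at r = 0.83 over the 12 exposed arrays and at r = 0.31 over the 12 control arrays. For hpxb and cp the same r was 0.64 in exposed and 0.23 in control arrays, and for cp and fth1a 0.67 and -0.53. The deviations of mt2 ran against those of hpxb, with r = -0.66 in exposed and -0.49 in control arrays. These r include mt2 spots not above background in Cy5, which was exceeded on 8 of 12 exposed and 10 of 12 control arrays. At 8 h no exposed array had mt2 above background. The points share arrays and their normalization, and the values are given as a description.

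Across the 8 hepatocyte markers measured, which include apolipoproteins, the fatty acid binding protein fabp10a and the retinol carrier rbp4, the pools of exposed fish ran opposite to hpxb. The mean of these markers and hpxb, both as deviations from the group mean, correlated at r = -0.95 over the 12 exposed arrays and at 0.35 over the 12 control arrays. With the 5 markers that had no saturated Cy5 spot, r was -0.85 in exposed and 0.57 in control arrays. Among single markers the r with hpxb in exposed arrays was -0.95 for rbp4 (Cy5 saturated on 6 of 24 arrays), -0.83 for apoba and -0.69 for the fetuin gene ahsg1, but 0.08 for apoa1a, so the pattern did not extend to every marker. For fth1a the r with the mean of the 5 unsaturated markers was -0.84 in exposed arrays and 0.15 in control arrays, and for cp -0.33 and 0.37. These relations were picked after seeing all 24 pairs of a marker list with a gene, and are descriptions over arrays that share 1 normalization. On 3 of the exposed arrays the hpxb spot was saturated.

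**Figure D4:**
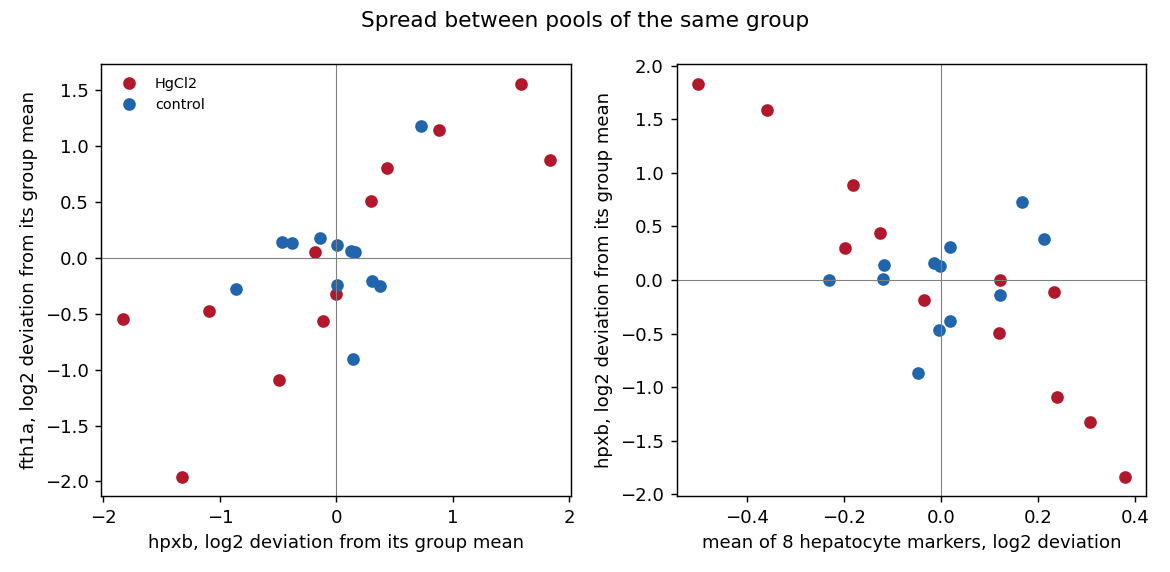
Left, deviation of fth1a from its group mean against that of hpxb; right, deviation of hpxb against that of the mean of 8 hepatocyte markers (log2 units; red, 12 HgCl2 arrays; blue, 12 control arrays). Among exposed arrays hpxb rises with fth1a (r = 0.83) and falls with the hepatocyte markers (r = -0.95), with r = 0.31 and 0.35 in the control arrays. The hpxb values of 3 exposed arrays come from saturated spots.

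By Pearson correlation over all 24 arrays, the genes whose log2 ratios were most like those of hpxb were rgs6 (r = 0.958), a regulator of G protein signalling, the unnamed gene si:ch1073-126c3.2 (r = 0.957) and tcn2 (r = 0.940), which encodes the vitamin B12 carrier transcobalamin. Those most like cp were the complement gene c3a.1 (r = 0.955), relt (r = 0.925), a receptor of the tumour necrosis factor family, and mst1 (r = 0.919), which encodes macrophage stimulating protein. Those most like fth1a were bzw1a (r = 0.933), the coatomer subunit gene copz1 (r = 0.931) and the elongin subunit gene elocb (r = 0.900). For mt2 the highest r was 0.674, with fbxo36a, followed by hacd2 (r = 0.637) and golim4a (r = 0.634). The points share the treatment, so these r include the difference between exposed and control livers. Those of hpxb also include 3 arrays with a saturated hpxb spot.

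Beside the members, 35 other genes from lists of heme, iron, copper and zinc handling had a probe. At 8 h limma called 0 of them, when 0.318% of all named genes were called higher and 0.355% lower. At that time 8 of the 35 had an unadjusted limma p under 0.05, as had 2085 of the 16340 probes tested. At 24 h 1 was called higher and 4 lower, at 48 h 2 and 3, and at 96 h 3 and 2. The shares of all named genes called higher were 6.11%, 5.16% and 7.62% at these times, and the shares called lower 4.84%, 3.61% and 5.61%. In the average over the 4 times 10 were higher and 8 lower, with a median difference of 0.07, beside 17.9% higher and 14.6% lower among the 5352 named genes. In that average no other gene of these lists had a difference above 1.07 or below -0.62. At single times slc39a13 came close to cp, with 1.66 at 24 h and 1.71 at 48 h beside 1.93 and 1.76 for cp.

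In heme scavenging, 3 of 6 measured genes were higher in the average and 0 lower, with a median of 0.21. Besides hpxb these were hp (0.42 ± 0.15, limma adjusted p = 0.0326), the gene of haptoglobin, which binds free hemoglobin, and apom (0.80 ± 0.11). The product of apom is known as a carrier of sphingosine-1-phosphate on lipoproteins. Its place in this list does not show a role in heme scavenging. At 96 h hp had log2 ratios of 1.1, 1.44 and 1.06 in HgCl2 livers, against 0.38, 0.38 and 0.34 in control livers, a difference of 0.83 that did not pass (limma adjusted p = 0.0669). The exposed pools were above the control pools at that time, which held for 19.4% of probes in that direction. The call of hp in the average was lost without 1 of 7 arrays, namely control 8 h replicate 2 or 3, control 24 h replicate 2, control 48 h replicate 2, HgCl2 8 h replicate 1, HgCl2 24 h replicate 3 or HgCl2 96 h replicate 2 (limma adjusted p up to 0.0651). It was also lost with the authors' value table and without the 2 arrays highest in ovary markers (adjusted p up to 0.0593). The genes of the endocytic receptor lrp1aa, which in mammals takes up the complex of heme and hemopexin, and of the heme transporter slc48a1b did not pass, with average differences of -0.10 and -0.0025. No probe with 1 gene symbol carried a name of the list on heme breakdown. Since 10349 spots had no symbol, probes of these genes may still be on the array.

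Of 5 measured genes of heme synthesis, 1 was higher and 2 were lower in the average, with a median of -0.20. The gene of ferrochelatase, which puts iron into heme, was lower (fech, -0.53 ± 0.11, limma adjusted p = 0.000732), as was slc25a38b, a mitochondrial glycine carrier that supplies the first step (-0.58 ± 0.08). Coproporphyrinogen oxidase, an enzyme before the last steps, was higher (cpox, 0.36 ± 0.08), but its difference was between 0.12 and 1.13 over other settings, and without background correction the call was lost (limma adjusted p = 0.232). At 96 h fech had log2 ratios of -0.92, -0.98 and -1.25 in HgCl2 livers, against -0.28, 0.02 and -0.02 in control livers. The erythroid gene alas2 had an average difference of -0.03 and urod one of -0.20, and neither passed. Of 12 markers of red blood cells, which make heme too, 7 were lower in the average and 0 higher, and their part in the difference of fech was not tested.

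In iron storage, the other measured gene ncoa4, a receptor that sends ferritin to lysosomes, had an average difference of -0.03 ± 0.08, which did not pass. In iron transport, the exporter slc40a1 (ferroportin) was higher in the average (0.81 ± 0.18, limma adjusted p = 0.00181), and the importer slc11a2 (DMT1) was lower (-0.62 ± 0.08), while meltf did not pass (0.30). Among 8 genes of iron sensing and hepcidin control, 1 was higher and 3 were lower in the average, with a median of -0.0094. The regulator ireb2, which represses ferritin translation when iron is scarce, was lower (-0.54 ± 0.10), but its spot was above background in Cy5 on 7 of 24 arrays only. Its difference was between -1.1 and -0.27 over other settings, and its call was lost with the authors' value table (limma adjusted p = 0.277). The gene of its partner fbxl5, which in mammals marks it for degradation, was higher (0.34), and the receptor genes acvr1l and bmpr1aa were both lower (-0.43 each). The call of acvr1l was lost without background correction and with the authors' value table (down to -0.21, limma adjusted p up to 0.203), whereas that of bmpr1aa was kept in all 9 other settings.

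Beside cp, the copper importer slc31a1 (0.13 ± 0.19) and the copper enzyme sod1 (-0.19 ± 0.12) did not pass in the average. Among the 8 zinc transporters measured beside mt2, 3 were higher and 2 lower: slc39a13 was higher by 1.07 ± 0.26 (limma adjusted p = 0.0035), slc30a9 by 0.35 ± 0.10 and slc39a6 by 0.35, while slc30a8 (-0.36 ± 0.12) and slc39a7 (-0.22) were lower. The highest slc39a13 ratios were on the 2 arrays highest in ovary markers (1.62 on HgCl2 48 h replicate 1 and 1.82 on HgCl2 96 h replicate 3), without which its difference was 0.78 (limma adjusted p = 0.00720). The call of slc30a8 was lost with plain background subtraction and without these 2 arrays (limma adjusted p up to 0.162). In iron-sulfur cluster assembly, 2 of 3 genes were higher in the average: the chaperone hspa9 (0.43 ± 0.13) and glrx5 (0.30 ± 0.11). Neither call was firm: that of hspa9 was lost in 3 of 9 other settings, namely without background correction, with the authors' value table and without HgCl2 24 h replicate 1, 48 h replicate 1 and 96 h replicate 3 together (down to 0.21, limma adjusted p up to 0.103), and that of glrx5 in 4 of 9 settings and without any 1 of 13 arrays.

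**Figure D5:**
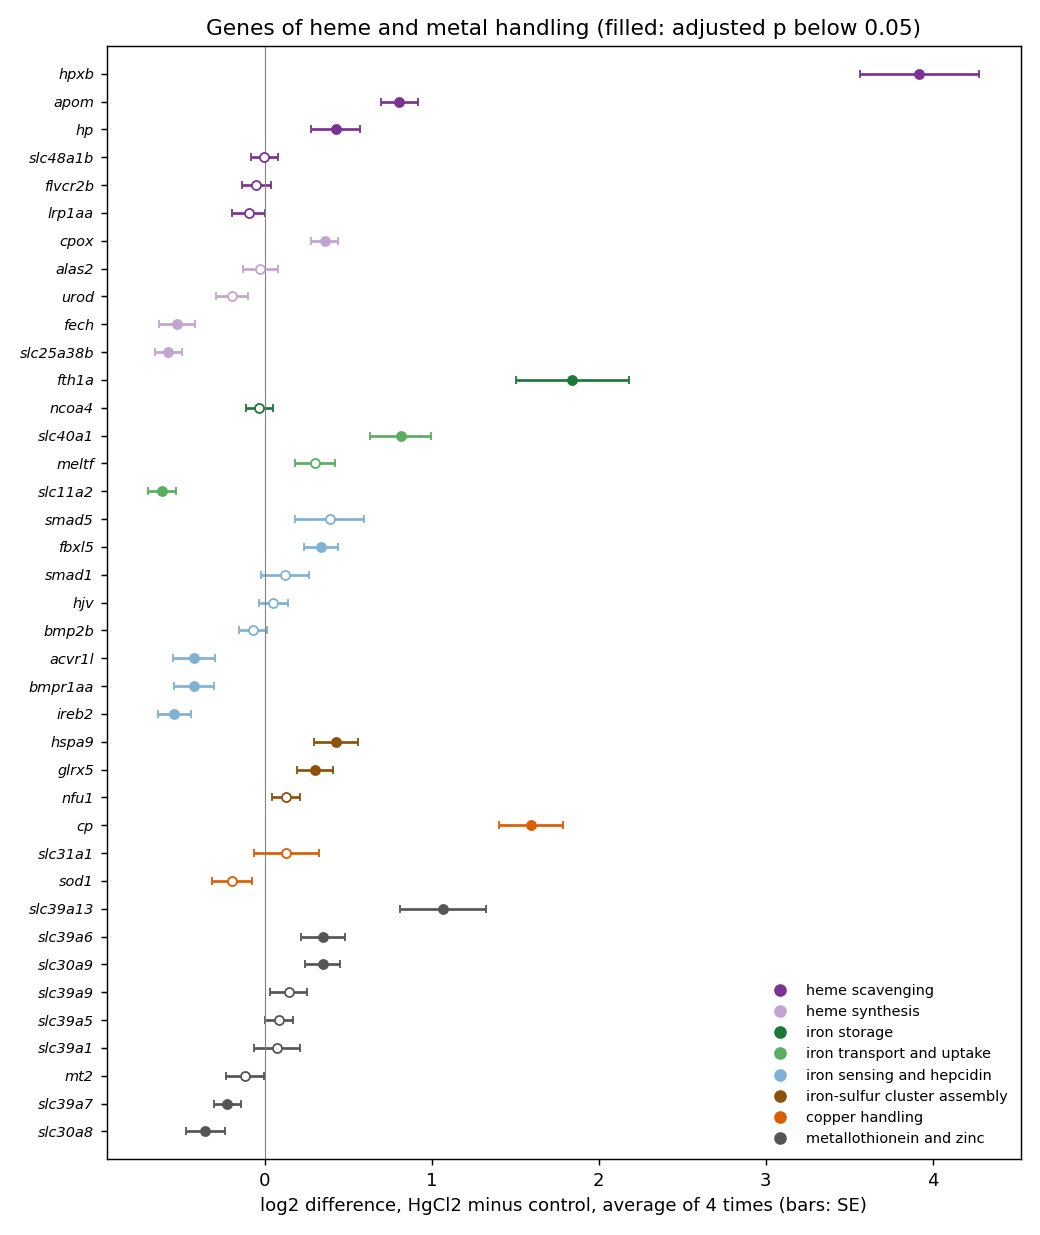
Average log2 difference HgCl2 minus control over the 4 times with its SE for the measured genes of 8 lists of heme and metal handling (filled points, limma adjusted p under 0.05; tfa is left out because both channels were saturated). hpxb (3.92), fth1a (1.84) and cp (1.59) lie to the right of all other genes, whose differences are between -0.62 and 1.07.

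Since hemopexin and ceruloplasmin belong to the acute phase proteins, other genes of acute phase plasma proteins and of the signalling behind them were read beside them. Only 2 of 22 listed plasma protein genes and 7 of 13 listed signalling genes were measured. No probe with 1 gene symbol carried the other names. The study names cfb, fga and fgb with the acute phase response among its array results, so these plasma protein genes had probes that were not read here. Probes of the other genes may also be among the spots without a symbol. The complement gene c3a.1 was higher by 2.12 ± 0.20 in the average, a lower limit, since its Cy5 spot was saturated on 7 arrays, all of them exposed, and hp is given above. At 24 h c3a.1 had log2 ratios of 1.79, 2.96 and 2.68 in HgCl2 livers (the last 2 saturated), against 0.50, 0.25 and -0.21 in control livers. Every exposed pool was above every control pool, which held for 14.7% of probes at 24 h. Exposed replicate 1 was again the lowest of its group. Of the signalling genes 4 were higher and 1 lower in the average: jak1, a kinase that cytokine receptors use, was higher by 1.47 ± 0.14, socs3b, a feedback inhibitor of that pathway, by 1.96 ± 0.23, its paralog socs3a by 1.12, and the transcription factor stat3 by 0.60 ± 0.09, while cebpa was lower (-0.55). Among 5 measured targets of NRF2, the factor that answers thiol-reactive agents, 3 were higher and 0 lower, namely txnrd3 (2.07 ± 0.30), gclm (1.19 ± 0.20) and gstp1.2 (0.93 ± 0.21). Of all 5352 named genes, 17.9% were called higher and 14.6% lower in the average over the 4 times. In exposed livers txnrd3 was highest on the 2 arrays highest in ovary markers (3.41 on HgCl2 48 h replicate 1 and 3.87 on HgCl2 96 h replicate 3), and in control livers on 8 h replicate 1 (1.24) and 48 h replicate 1 (0.85), which had the highest ovary markers of the controls. Without these 2 exposed arrays the difference of txnrd3 was 1.74 and was still called (limma adjusted p = 2.72e-05).

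The labelled tissue showed its markers: all 8 hepatocyte markers were above background on all 24 arrays. Their summed normalized Cy5 signal was 186304 to 294131 in exposed and 176706 to 271044 in control livers. Saturation limits this sum, since the Cy5 spot of apoa1b was saturated on 24 of 24 arrays, that of fabp10a on 16 and that of rbp4 on 6. In the average 3 of the 8 were called higher (apoa1a 0.86, apoeb 0.69 and apoa1b 0.34) and 1 was called lower (apoba -0.72). With its Cy5 spot at the scanner maximum on every array, the difference of apoa1b is no measure of its level in liver. Markers of other cells also moved with treatment. The 7 ovary markers had a mean log2 ratio of -1.22 to 3.10 in exposed and -1.88 to 0.33 in control livers (summed Cy5 2929 to 126456 and 2414 to 17103), and 6 of them were higher in the average. The 12 red blood cell markers had a mean of -0.32 to 0.09 in exposed and -0.04 to 0.59 in control livers (summed Cy5 6966 to 12079 and 8393 to 29352), and 7 were lower. The 4 exocrine pancreas markers were all lower in the average (summed Cy5 1638 to 9104 in exposed and 2943 to 14929 in control livers), and of 12 leukocyte markers 5 were higher and 1 lower (summed Cy5 4816 to 11494 and 4757 to 8731). Among all 5352 named genes, 17.9% were called higher and 14.6% lower in the average. No marker of these lists was below background on every array.

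The 2 arrays with the highest ovary markers were HgCl2 48 h replicate 1 (mean log2 ratio 2.76), which was also the highest for hpxb and fth1a at that time, and HgCl2 96 h replicate 3 (3.10), which was not. Without both, a setting chosen after the data were seen, the average difference was 3.74 ± 0.34 for hpxb, 1.55 ± 0.21 for cp and 1.64 ± 0.32 for fth1a, all 3 still called in limma, but fth1a at 48 h fell to 1.58 and lost its call (adjusted p = 0.209). The deviations of the ovary markers from their group means correlated with those of hpxb, cp and fth1a at r of -0.10, -0.08 and 0.16 over the 12 exposed arrays and of 0.63, -0.25 and 0.62 over the 12 control arrays. For the red blood cell markers these r were -0.61, -0.43 and -0.77 in exposed and 0.36, -0.14 and 0.38 in control arrays. Without the 2 arrays, the exposed arrays kept still had ovary markers at -1.22 to 0.89, against -1.88 to 0.33 in control livers. Over all 24 arrays, which includes the treatment, ovary markers correlated with hpxb, cp and fth1a at r of 0.63, 0.56 and 0.65. The part of ovary, red blood cells, pancreas and leukocytes in the differences of hpxb, cp and fth1a was not tested.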

How the data were processed

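Liver RNA of 24 pools was hybridised to spotted oligonucleotide arrays. The authors deposited, for each array, scanner median intensities of spot and local background in both channels, without normalization, from a GenePix scan. Their deposited log2 value table follows the log2 of a deposited column of ratios of means, shifted by a constant that differs between arrays, apart from some spots of 1 array. The lowess step of the methods is not seen in these values. Here, intensities were corrected by normexp with an offset of 50 and normalized by loess within arrays (limma 3.58.1, R 4.3.3), the 172 control spots of beta-actin having no weight. A fit of 8 group means (16 residual degrees of freedom) gave differences with standard errors and p-values adjusted by Benjamini-Hochberg over 16340 probes, with a threshold of 0.05. The number of arrays limits the precision. A spot was above background when its median exceeded that of the local background by 2 SD. On simulated data the procedure was tested before use. Of the spots, 6088 had 1 gene symbol, 75 several and 10349 none, and 5352 genes were kept by their brightest tested probe. Nothing states that pools of a group were exposed in separate tanks, so p-values measure the spread between these pools. Named from each list were the 3 genes with the smallest p of the average, and for each member the 3 genes of highest correlation; other list genes were named after their values were seen. The members and lists were chosen with earlier results of these data known. Alternatives changed the background correction, normalization, value source, dim probes, replicate block, arrays and test. Genes saturated in both channels on every array of a treatment were left out of list counts, which was decided after seeing the data.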

Additional observations from a re-analysis of the deposited data

Results flagged for a closer look

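Among the members, no effect was called as differing between times. Of the 3 genes with the smallest p in each list of cell type markers, looked at after the data were seen, 3 had an effect of HgCl2 that differed between times in limma. For cpb1, a carboxypeptidase gene of the exocrine pancreas, the effect at 96 h was lower than that at 8 h by a difference of -2.52 ± 0.56 (adjusted p = 0.0300), with -1.86 at 96 h and 0.67 at 8 h. For mpeg1.1, a macrophage gene, the effect at 96 h exceeded that at 8 h by 2.3 ± 0.33 (adjusted p = 0.00109), with 1.87 at 96 h and -0.43 at 8 h. For lcp1, a leukocyte actin-bundling gene, the effect at 96 h exceeded that at 24 h by 1.44 ± 0.26 (adjusted p = 0.0325), with 1.24 at 96 h and -0.20 at 24 h. The part of these cells in the values of hpxb, cp and fth1a was not tested.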

How the results depend on the processing

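No difference of a member that was called reversed its sign under the settings run. With plain background subtraction fth1a at 48 h was 2.35 (limma adjusted p = 0.0625) and 412 probes were called at 8 h, against 159 in the reported fit, and with median centring in place of loess 256 at 8 h. With the authors' value table, cp at 48 h was 1.31 (adjusted p = 0.0665), fth1a at 48 h 2.25 (adjusted p = 0.0776), and 557 probes were called at 8 h (187 higher and 370 lower, against 102 and 57) and 845 at 48 h (407 and 438, against 864 and 550). With the 6 arrays of a time alone, hpxb at 8 h kept 3.10 but had a limma adjusted p of 0.221, and the probes called numbered 0, 940 and 900 at 8, 24 and 48 h. The methods' t-test after Benjamini-Hochberg called 1, 12, 2 and 706 probes at 8, 24, 48 and 96 h (1616, 3085, 3132 and 4171 at an unadjusted p under 0.05), and lost hpxb at 8 h (3.10), 24 h (3.96) and 48 h (4.10), cp at 24 h (1.93), 48 h (1.76) and 96 h (1.79) and fth1a at 48 h (2.36) and 96 h (2.27). The t-test was not run for the average.

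The other settings were chosen after the data were seen. With saturated spots missing, hpxb at 24 h was 2.64. Without the 2 arrays with the highest ovary markers, fth1a at 48 h was 1.58, and 683 probes were called at 48 h and 1324 at 96 h. Without these and HgCl2 24 h replicate 1, fth1a was 2.88 at 24 h, now called, and 1.58 at 48 h, not called, with 2695 probes at 24 h and 842 at 48 h.

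Leaving out 1 array at a time gave hpxb at 8 h 2.18 to 4.01, and fth1a 1.33 to 2.88, 1.58 to 2.90 and 2.01 to 2.55 at 24, 48 and 96 h. Probes called numbered 20 to 189, 987 to 2282, 603 to 1342 and 1073 to 2007 at 8, 24, 48 and 96 h. Counts moved by over 1.5 times without control replicate 2 (87) or 3 (64) or HgCl2 replicate 1 (20) or 2 (51) at 8 h, without control replicate 1 (1171) or 2 (987) or HgCl2 replicate 2 (1058) or 3 (1013) at 24 h, without control replicate 1 (729) or 2 (660) or HgCl2 replicate 1 (603) at 48 h, and without control replicate 2 (1073) or 3 (1373) or HgCl2 replicate 3 (1244) at 96 h. In the average, glrx5 lost its call without control 8 h replicate 2 or 3, 24 h replicate 1, 48 h replicate 1 or 2 or 96 h replicate 2 or 3, or HgCl2 8 h replicate 1, 24 h replicate 2 or 3, 48 h replicate 3 or 96 h replicate 1 or 3 (adjusted p up to 0.0694), and slc30a8 without control 8 h replicate 3, 24 h, 48 h or 96 h replicate 2, or HgCl2 8 h or 24 h replicate 2 (adjusted p up to 0.0544). The iron-binding meltf gained a call without 1 of 5 arrays and in 3 other settings. Settings in which other named genes lost their call stand beside their values.

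Whether the replicate numbers pair the samples was not settled, since the deviations come from means of few arrays. Same-numbered exposed and control pools correlated at -0.03 to 0.19 in their deviations (median 0.04, 1 of 12 over 0.1). Differently numbered pools correlated at -0.16 to 0.09 (median -0.01, 0 of 24 over 0.1). At 48 h every same-numbered r (0.08 to 0.19) was above every differently numbered r (up to 0.06), while at the other times they overlapped. With the replicate block 112, 1604, 1234 and 1906 probes were called at 8, 24, 48 and 96 h, and no member's call changed (fth1a adjusted p = 0.0489 at 48 h and 0.0440 at 96 h in limma). Saturation limits hpxb and tfa, and low signal over background limits mt2.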
